A study of Mus musculus with 6 samples.

Results

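Desmosomes are spot-like junctions that tie neighbouring cells together and anchor their intermediate filaments. Desmogleins and desmocollins are the cadherins that bridge the gap between cells, plakoglobin and the plakophilins are armadillo proteins under the membrane, and desmoplakin links them to the filaments. The junctions are abundant in stratified epithelia and in heart muscle, and the cadherin and plakophilin isoforms differ with tissue and with the layer of the epithelium. Of 10 desmosome genes chosen by name (Dsg1a, Dsg2, Dsg3, Dsc2, Dsc3, Dsp, Pkp1, Pkp3, Jup and Perp), 9 had a probe set annotated to that gene alone, each of them a single one, out of 19938 genes with such a probe set. Dsg1a had none, and its 1 probe set is shared with Dsg1b and Dsg1c. The 9 genes were read from arrays of samples labelled as mouse aorta, a tissue for which these genes are not typical markers.

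Per the labels, 3 arrays held aortic RNA from Trail knockout mice and 3 held aortic RNA from wild-type mice, all C57Bl6/J and 6 weeks old, with no treatment named. The knockout mice came from Amgen, per the submitters, and the labels do not say how the gene was deleted. Nothing in the labels says whether each RNA came from 1 animal or from a pool, so p-values measure only the spread between these samples. Values are log2 signals, in which 1 unit is a 2-fold difference in signal.

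The arrays did not behave as 2 groups of 3. The array labelled wild type 1 had a Pearson r of 0.899 to 0.907 with the others across 23410 annotated probe sets, against 0.974 to 0.996 among the other 5. Probe sets are no independent replicates, so these values only describe the arrays. Tnfsf10, the gene of Trail, gave 5.02, 4.48 and 4.09 on knockout 1, 2 and 3, and 8.42, 4.90 and 4.85 on the libraries labelled wild type 1, 2 and 3, so only wild type 1 stood apart from the knockout arrays in it. Acta2, an actin of smooth muscle, gave 12.57, 12.63 and 12.27 on knockout 1, 2 and 3, and 12.62, 12.39 and 12.57 on wild type 1, 2 and 3. Smooth muscle markers were not all even, since 2 of 10 were over 2-fold below every other array on wild type 1. Des gave 7.86 there and 11.2 to 11.6 on the other 5, and Actg2 gave 8.03 and 10.67 to 11.39. Results that rest on wild type 1 are therefore given with and without it, and directions follow the labels.

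Only Dsp and Jup among the 9 measured genes had a promoter in the RefSeq table used here (GRCm38.p6). They are shown for that reason alone. Both genes, desmoplakin and plakoglobin, serve desmosomes of every type. Both were low on wild type 1, and a link of their promoters to that was not tested. The stretch before the Dsp start lies at chr13:38151044-38151293 on the plus strand, and that before the Jup start at chr11:100397840-100398040 on the minus strand. Capitals mark every match to GGGCGG (a GC box) or to CACCC (a letter core of KLF sites), read on both strands.
Dsp: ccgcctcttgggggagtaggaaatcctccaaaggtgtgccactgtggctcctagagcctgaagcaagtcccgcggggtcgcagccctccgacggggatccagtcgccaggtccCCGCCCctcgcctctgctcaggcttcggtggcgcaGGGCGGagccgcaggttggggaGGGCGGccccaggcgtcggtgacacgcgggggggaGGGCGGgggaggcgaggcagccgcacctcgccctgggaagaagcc
Jup: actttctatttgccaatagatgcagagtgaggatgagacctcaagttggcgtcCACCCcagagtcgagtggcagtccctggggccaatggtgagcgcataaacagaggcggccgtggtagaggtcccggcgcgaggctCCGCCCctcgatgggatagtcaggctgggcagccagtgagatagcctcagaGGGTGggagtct
The Dsp stretch of 250 bases was 72.4% G or C and held 4 GC boxes, and the Jup stretch of 201 bases was 60.2% G or C and held 1 GC box and 2 CACCC matches. Of 32851 promoters, 32.7% held a GC box in a window of 250 bases and 24.8% in one of 201 bases, and 44.6% held CACCC in one of 201 bases. None of the marked matches overlapped another. Neither stretch held TGANTCA (AP-1), AACCNGTT (GRHL), TATAAA or the p53 family core. Of all promoters 6.75%, 1.79%, 12.4% and 1.63% held these letters in 250 bases. In 201 bases the shares were 5.59%, 1.42%, 9.18% and 1.25%. Letters alone show neither binding nor its lack.

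Among the desmosomal cadherins Dsg3, Dsc3 and Dsc2 were far lower on wild type 1 than on the other arrays, and Dsg2 was not. Dsg3, a desmoglein of stratified epithelium, gave 9.82, 9.33 and 9.95 on knockout 1, 2 and 3, and 4.21, 9.996 and 9.75 on wild type 1, 2 and 3. Dsc3, a desmocollin of stratified epithelium, gave 9.70, 9.15 and 9.89 on knockout 1, 2 and 3, and 3.38, 10.05 and 9.61 on wild type 1, 2 and 3. Dsc2, a more widely expressed desmocollin, gave 10.74, 10.50 and 10.79 on knockout 1, 2 and 3, and 5.51, 10.86 and 10.40 on wild type 1, 2 and 3. In all 3 genes wild type 1 was far below the other arrays, and the other 5 kept close together, so the groups overlapped through wild type 2 and 3. Wild type 1 minus the mean of the other 5 was -6.30 for Dsc3, -5.55 for Dsg3 and -5.15 for Dsc2 on the log2 scale. The lowest of the other 5 exceeded wild type 1 by 54.5-fold for Dsc3, 34.6-fold for Dsg3 and 29.6-fold for Dsc2. The values of Dsg3 and Dsc3 on wild type 1 lay below the lower quartile of that array's annotated probe sets, 4.85. No detection calls were used here, so these signals may sit at the background and the folds may understate the gap.

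Dsg2 had another pattern. It is the desmoglein of simple epithelia and heart muscle, and it gave 5.85, 8.77 and 5.81 on knockout 1, 2 and 3, and 5.33, 5.84 and 5.77 on wild type 1, 2 and 3. Knockout 2 was thus 7.59-fold above the next array, while knockout 1 and 3 and wild type 2 and 3 lay between 5.77 and 5.85. Wild type 1 was the lowest array here too, at -0.44 from the next. Of all 9 genes Dsg2 alone was not over 2-fold below every other array on wild type 1.

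The desmoglein 1 genes could be read only in part. The probe set shared by Dsg1a, Dsg1b and Dsg1c gave 11.53, 11.29 and 11.72 on knockout 1, 2 and 3, and 3.82, 11.81 and 11.40 on wild type 1, 2 and 3, and which of the 3 genes it read cannot be told. Desmoglein 1 is the desmoglein of the upper layers of stratified epithelium. The probe set of Dsg1b alone gave 10.01, 10.25 and 10.70 on knockout 1, 2 and 3, and 6.48, 10.86 and 10.48 on wild type 1, 2 and 3. That of Dsg1c alone stayed between 3.53 and 3.80 on all 6 arrays. All desmoglein and desmocollin genes measured here lie together on chromosome 18 and are similar in sequence, and how far a probe set reads its neighbours was not tested.

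The genes of the plaque and Perp were also lower on wild type 1 than on every other array, with gaps narrower than those of Dsg3, Dsc3 and Dsc2 and wider than that of Dsg2. Dsp, desmoplakin, gave 11.62, 11.50 and 11.60 on knockout 1, 2 and 3, and 7.78, 11.71 and 11.48 on wild type 1, 2 and 3. Pkp1, a plakophilin of the upper layers of stratified epithelium, gave 10.55, 10.05 and 10.47 on knockout 1, 2 and 3, and 6.06, 10.60 and 10.27 on wild type 1, 2 and 3. Pkp3, the plakophilin found in most epithelia, gave 8.42, 8.19 and 8.46 on knockout 1, 2 and 3, and 6.43, 8.66 and 8.30 on wild type 1, 2 and 3. In each of these genes wild type 1 was the single low array and the knockout values overlapped with those of wild type 2 and 3. Jup, plakoglobin, which also serves adherens junctions, gave 10.40, 10.23 and 10.33 on knockout 1, 2 and 3, and 8.23, 10.45 and 10.18 on wild type 1, 2 and 3. Perp, a small membrane protein of desmosomes and a target of p53 and p63, gave 11.20, 11.15 and 11.34 on knockout 1, 2 and 3, and 6.96, 11.39 and 11.14 on wild type 1, 2 and 3. The lowest of the other 5 exceeded wild type 1 by 12.96-fold for Dsp, 15.9-fold for Pkp1, 18.1-fold for Perp, 3.88-fold for Jup and 3.38-fold for Pkp3, so the gap was not of 1 size.

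**Figure D1:**
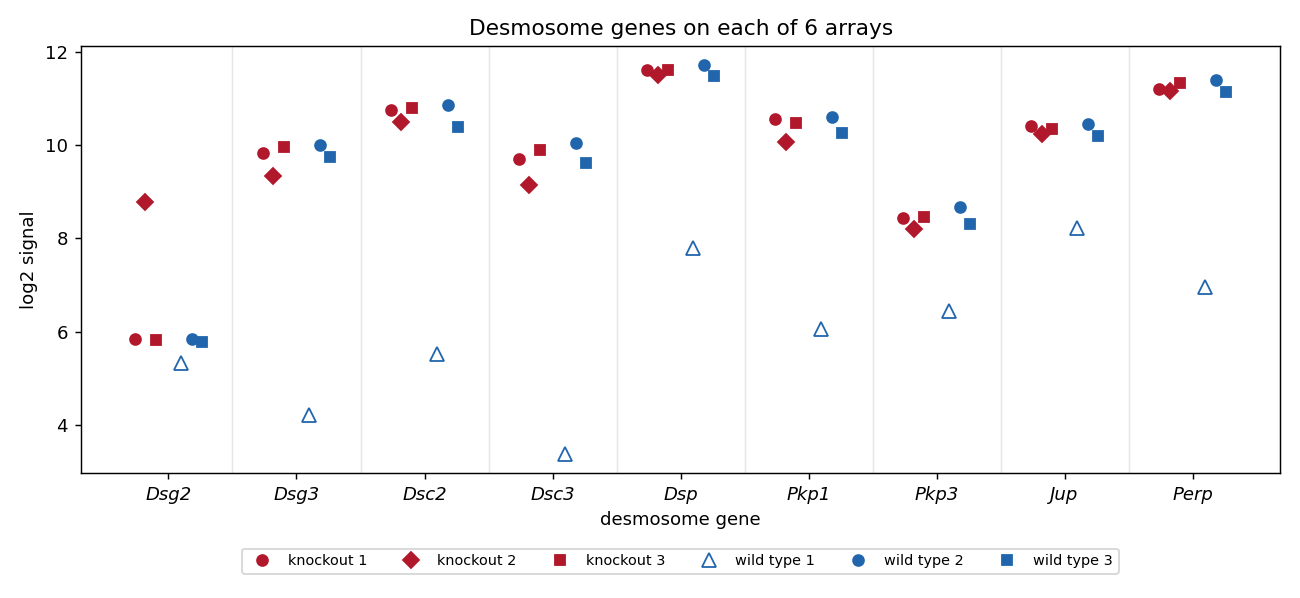
Log2 signal (vertical axis) of the 9 desmosome genes (horizontal axis) on each array, with knockout arrays in red to the left of wild-type arrays in blue. The open triangle, wild type 1, is the lowest point for every gene, and the red diamond, knockout 2, stands at 8.77 for Dsg2 above all other arrays.

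Wild type 1 was set against the other 5 arrays as a description with no test, because this array was singled out with its values known. It was below every other array for all 9 genes and over 2-fold below every other array for 8 of 9. Over the 12038 genes past the signal filter, 29.7% were below every other array on wild type 1 and 7.71% were over 2-fold below. For 6 of 9 genes the gap to every other array was over 4-fold, against 3.7% of genes past the filter. The median difference of wild type 1 from the mean of the other 5 was -4.28 over the 9 genes (range -6.30 to -1.08) and 0.06 over all genes past the filter. All 9 genes passed the filter, a mean signal above 5.86, but Dsg2 did so only through knockout 2, since its mean without that array was 5.72.

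Other genes of the junction and of its filaments were compared on the same array. Among 8 further desmosome and cornified envelope genes with a probe set, 4 were over 2-fold below every other array on wild type 1. Ppl, periplakin, gave 6.49 there and 10.79 to 11.21 on the other 5, Evpl, envoplakin, 6.92 there and 9.13 to 9.67 on the other 5, and Cdsn, corneodesmosin, 6.85 there and 9.38 to 9.88 on the other 5. Dsg1b was the other one. Pkp4, a plakophilin relative of adherens junctions and desmosomes, went the other way, with 8.96 on wild type 1 and 7.82 to 8.77 on the other 5. Pkp2, the plakophilin of heart muscle and simple epithelia, gave 6.08, 7.03 and 5.67 on knockout 1, 2 and 3, and 6.72, 5.68 and 6.05 on wild type 1, 2 and 3. Dsg4 stayed between 3.91 and 4.13 on all arrays. The isoforms of 1 family thus took different positions on wild type 1, from far below to above the other arrays.

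The adherens junction, the actin-bound counterpart, was split on wild type 1. Of its 17 measured genes 3 were over 2-fold below every other array and 2 were over 2-fold above, with a list median difference of -0.06. Cdh1, E-cadherin of epithelia, gave 5.18 on wild type 1 and 9.38 to 10.56 on the other 5, and the nectin genes Nectin4 and Nectin1 differed from the mean of the other 5 by -2.53 and -1.98. Cdh2, N-cadherin, gave 7.37 on wild type 1 and 5.38 to 5.74 on the other 5, and Cdh5, the cadherin of endothelium, 9.64 and 7.63 to 8.49. Ctnnb1, beta-catenin and the closest relative of plakoglobin, was picked after its values were seen. It gave 10.23 on wild type 1 and 10.14 to 10.44 on the other 5, within their range, whereas Jup was 3.88-fold below their lowest value.

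The hemidesmosome, which fixes keratin to the basement membrane, had 5 of 8 genes over 2-fold below every other array on wild type 1. They were Col17a1, Lamb3, Itgb4, Plec and Lama3, with differences from the mean of the other 5 of -1.96, -1.47, -1.36, -1.34 and -1.31. Itga6 and Dst were at -0.02 and -0.17. Cd151 was above every other array, with 9.68 on wild type 1 and 8.88 to 9.40 on the other 5. All 13 measured transcription factors of a list of keratinocyte regulators were under the other arrays by more than 2-fold on wild type 1. Elf3 among them, with 5.08 there and 6.12 to 8.64 on the other 5, is also one of the simple and glandular epithelium markers used below. Ehf gave 4.67 on wild type 1 and 9.59 to 9.996 on the other 5, Grhl3 gave 5.34 and 9.15 to 10.02, Zfp750 gave 4.33 and 8.34 to 8.83, and Sox2 gave 4.73 and 8.44 to 8.99. Trp63, p63, which in mouse skin drives Perp, gave 5.65 on wild type 1 and 8.17 to 8.62 on the other 5.

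Cell type markers were read on the same arrays beside the desmosome genes. All 18 stratified squamous markers were lower on wild type 1 than on any other array by more than 2-fold, and the log2 of their summed signal was 9.53 there and 15.56 to 15.82 on the other 5. Krt4 and Krt13, the keratin pair of the upper layers of lining epithelium, differed from the mean of the other 5 by -7.87 and -7.76. The same held for all 14 skeletal muscle markers, with a log2 summed signal of 9.92 on wild type 1 and 15.17 to 15.66 on the other 5, so epithelial and muscle markers were low together. Fat and endothelial markers stood on the other side, with 8 of 9 brown fat, 8 of 8 white fat and 5 of 10 endothelial markers over 2-fold above every other array on wild type 1. The share of all genes over 2-fold above every other array was counted for knockout 2 only, so counts of high markers on other arrays have no such share beside them. The log2 summed signal of brown fat markers was 14.33 there and 10.87 to 11.65 on the other 5, that of white fat markers 14.35 and 10.85 to 12.00, and that of endothelial markers 12.50 and 10.85 to 11.51. Of 12 cardiac markers, 6 were over 2-fold above every other array on wild type 1 and 1, Myl3, over 2-fold below, and the log2 summed signal was 12.80 there and 13.10 to 13.58 on the other 5. Myh6 and Nppa, a myosin heavy chain and a natriuretic peptide of the heart, gave 9.64 and 8.61 on wild type 1 and at most 5.45 and 5.63 on the other 5. Myl2, the ventricular light chain, was at 4.54 to 4.87 on all 6. The part of these cells in the desmosome values was not tested, and in bulk RNA fewer cells of a type cannot be told apart from less RNA per cell.

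**Figure D2:**
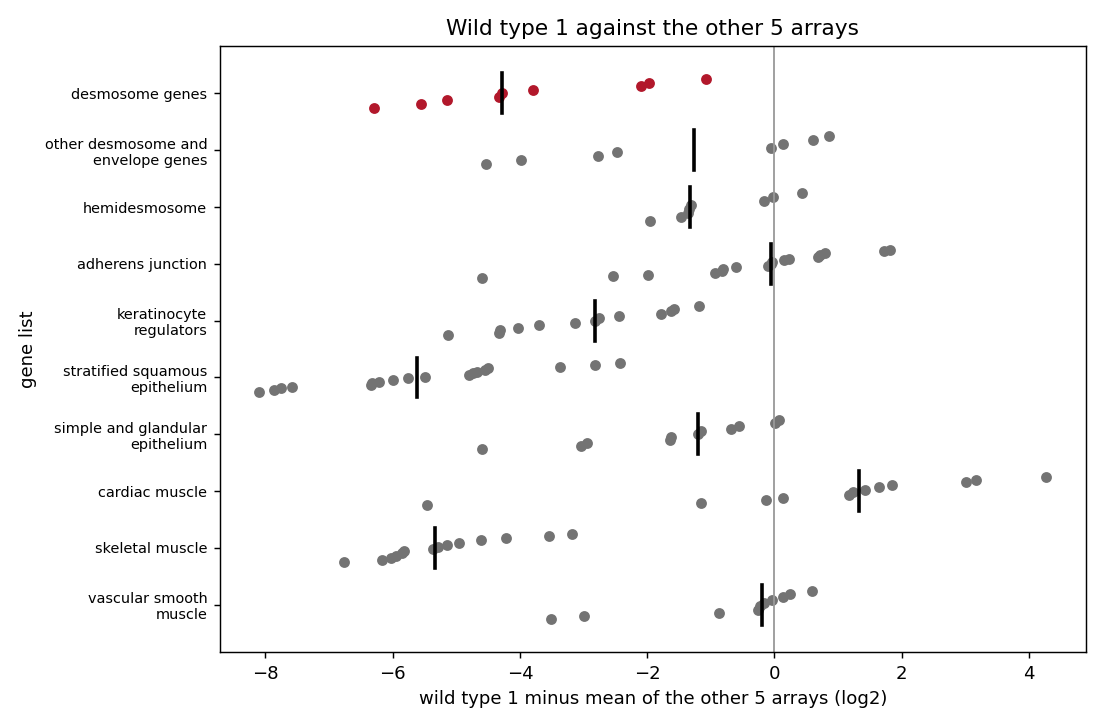
Difference of wild type 1 from the mean of the other 5 arrays (horizontal axis, log2) for each measured gene of 10 lists (vertical axis), with desmosome genes in red and black bars at list medians. Desmosome genes had a median of -4.28, stratified squamous markers -5.62, the adherens junction -0.06 and cardiac markers 1.33.

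The genes whose profile over the 6 arrays was nearest to the mean profile of the 9 genes were Aqp3, Rapgefl1, Scnn1a, Elovl7, Grhl1 and Il18. Nearness was the root mean square distance between array-centred log2 values, over 12029 other genes past the filter. Aqp3, a water and glycerol channel, was at a distance of 0.05, and it gave 9.98, 9.90 and 9.99 on knockout 1, 2 and 3, and 6.09, 10.05 and 9.72 on wild type 1, 2 and 3. The other 5 genes lay at 0.11 to 0.14. Among the members themselves Dsp was nearest to the mean profile, at 0.07, and Dsg2 farthest, at 1.48. Since wild type 1 is far from the other arrays, this measure rests mostly on that array.

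On the 5 arrays other than wild type 1 the desmosome genes, with the exception of Dsg2, varied by less than 2-fold, as did most genes. The range over these arrays was under 2-fold for 8 of 9 genes, against 95.2% of genes past the filter, and was 0.23 for Dsp, 0.25 for Perp, 0.27 for Jup and 0.90 for Dsc3. Among the 5, wild type 2 was the highest array for 8 of 9 genes, against 28.6% of genes past the filter. The lowest array of the 5 was knockout 2 for Dsg3, Dsc3, Pkp1 and Pkp3 and wild type 3 for the other 5 genes. Knockout 2 was the lowest of these arrays for 35.4% of genes past the filter. That share was not counted for wild type 3, so its 5 genes have none beside them. The log2 summed signal of stratified squamous markers had its highest value on wild type 2, 15.82, and its lowest on knockout 2, 15.56, and its part in this order was not tested.

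Knockout 2 held the one large difference among these 5 arrays. Dsg2 was over 2-fold above every other array there, as were 1.26% of all 19938 genes, taken without the signal filter, which Dsg2 passed only through this array. Pkp2 exceeded the mean of knockout 1 and 3 and wild type 2 and 3 by 1.15, and Pkp4 by 0.84. Dsg3, Dsc3 and Pkp1 differed from that mean by -0.55, -0.66 and -0.42, and Dsp, Jup and Perp by -0.10, -0.11 and -0.11. Of 11 markers of simple and glandular epithelium, 5 were over 2-fold above every other array on knockout 2, with a log2 summed signal of 13.57 on knockout 2 and 9.72 to 11.43 on the other 5. Krt8 gave 11.82 there and at most 7.96 elsewhere, and Elf3, an epithelial transcription factor, 8.64 and at most 6.34. Of 11 stomach gland markers 10 were over 2-fold above, with a log2 summed signal of 15.58 on knockout 2 and 8.38 to 10.97 on the other 5. The stomach sum of wild type 3, 10.97, was far below that of knockout 2 but above the 8.38 to 8.83 of the remaining arrays. Wild type 3 gave 5.77 for Dsg2, the lowest value outside wild type 1. On knockout 1, where 7 of 9 lung epithelium markers were over 2-fold above every other array, Dsg2 was at 5.85. The part of glandular, stomach or lung cells in the Dsg2 signal was not tested on any array.

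**Figure D3:**
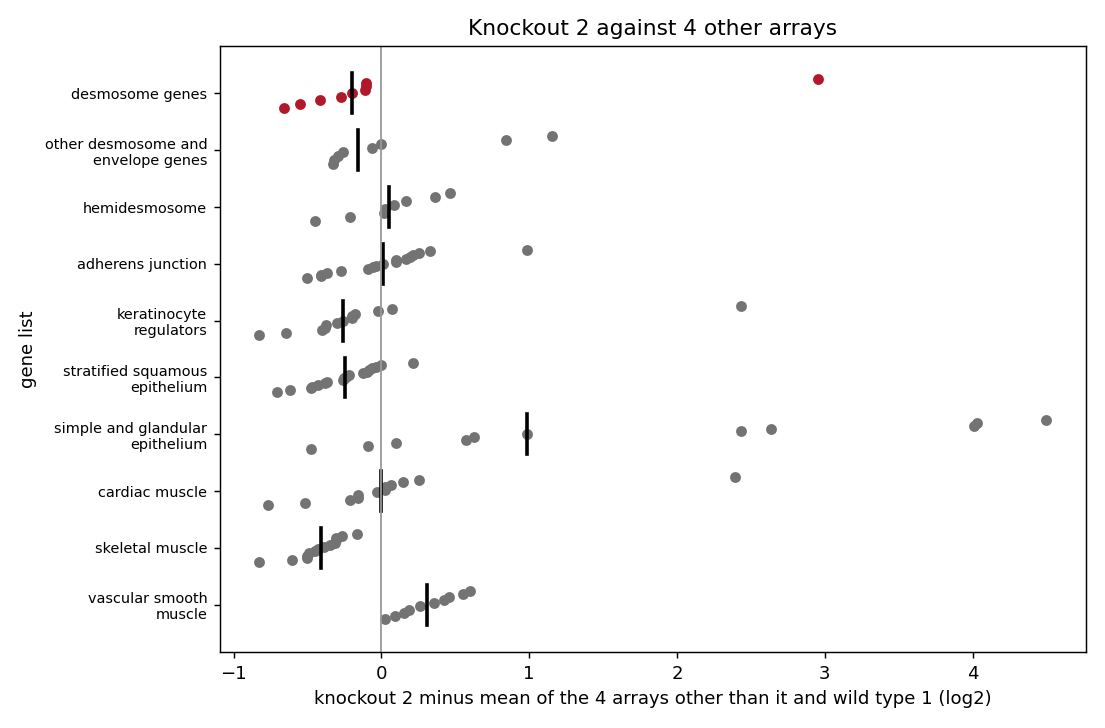
Difference of knockout 2 from the mean of knockout 1 and 3 and wild type 2 and 3 (horizontal axis, log2) for each measured gene of 10 lists (vertical axis), with desmosome genes in red and black bars at list medians. Dsg2 is the red point at 2.95, and the other 8 desmosome genes lie between -0.66 and -0.10.

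The genotypes were then compared, the question the series states. In limma, with adjustment over all 14046 tested probe sets, 0 of 9 desmosome genes passed at an adjusted p under 0.05, and 0% of all probe sets did. At an unadjusted p under 0.05, 0 of 9 desmosome genes and 0.634% of all probe sets were found. All 9 differences, knockout minus wild type, were above 0, against 41.9% of genes past the filter. Their median was 1.38 over the 9 genes, and it was -0.04 over all genes past the filter. Dsc3 averaged 9.58 ± 0.38 in knockout and 7.68 ± 3.73 in wild type (SD, n = 3 each), a difference of 1.90 (SE 1.80, 95% interval -2.54 to 6.34, limma adjusted p = 0.921). Dsp averaged 11.57 ± 0.07 in knockout and 10.32 ± 2.20 in wild type (SD, n = 3 each), a difference of 1.25 (SE 1.06, 95% interval -1.37 to 3.86, limma adjusted p = 0.921). The SD in wild type came from wild type 1, and the differences of the other 7 genes lay between 0.56 and 1.75, each with the same limma adjusted p. The groups were free of overlap for 0 of 9 genes, against 5.8% of genes past the filter.

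Without wild type 1 the same genes differed little between the genotypes. The median difference was -0.04 over the 9 genes, with 3 above 0 and 6 below, and -0.02 over all genes past the filter. Of the genes past the filter, 43.1% were above 0. Dsc3 was at -0.25 (SE 0.24, 95% interval -0.83 to 0.32), Dsg3 at -0.17 (SE 0.20, 95% interval -0.65 to 0.31), Pkp3 at -0.13 and Pkp1 at -0.07. Perp was at -0.04, Dsp at -0.02 (SE 0.10, 95% interval -0.26 to 0.22), Jup at 0.00 and Dsc2 at 0.05. In limma 0 of 9 genes had an adjusted p under 0.05, as had 0% of all probe sets, and 0 of 9 had an unadjusted p under 0.05, against 1.54% of all probe sets. Dsg2 differed by 1.01 (SE 0.86, 95% interval -1.05 to 3.06), with 6.81 ± 1.70 in knockout (SD, n = 3) and a mean of 5.80 in wild type 2 and 3. Leaving out knockout 2 as well, a choice made after seeing the data, gave 0.02 for Dsg2 (SE 0.18, 95% interval -0.40 to 0.45), and the 9 differences then lay between -0.04 and 0.14. In limma 0 of 9 genes then had an unadjusted p under 0.05, against 1.31% of all probe sets.

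**Figure D4:**
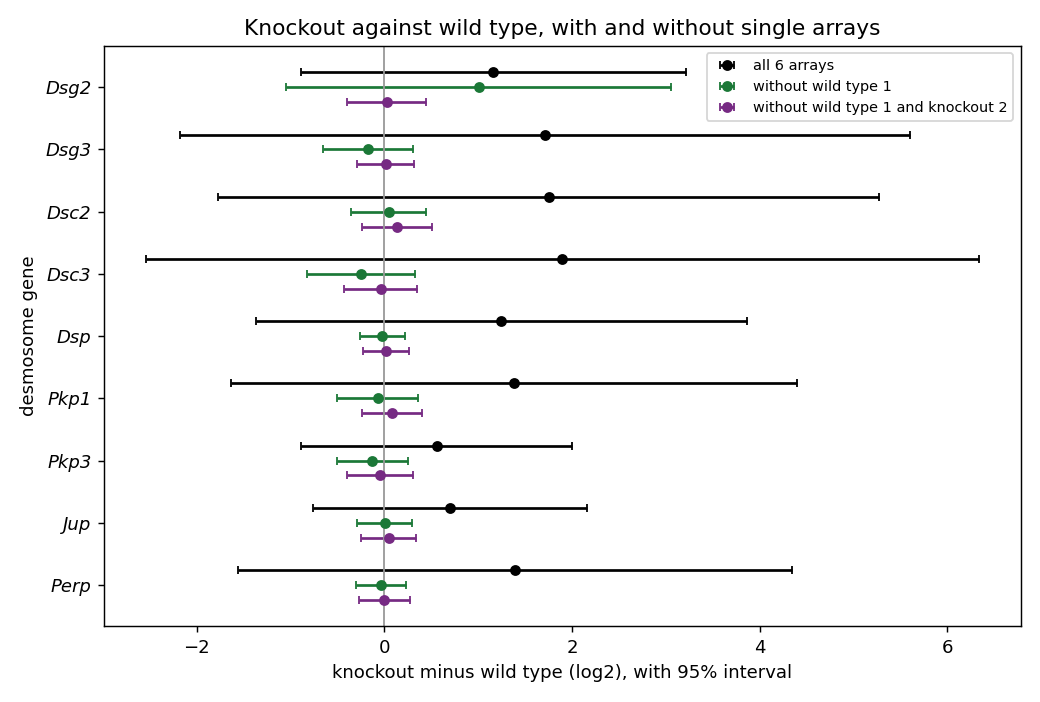
Difference between knockout and wild type (horizontal axis, log2, knockout minus wild type) with its 95% interval for each desmosome gene (vertical axis), on all 6 arrays, then with wild type 1 left out, then with knockout 2 left out too. Every interval includes 0, and without wild type 1 the interval of Dsp narrows to -0.26 to 0.22.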

How the data were processed

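RNA of 6 samples labelled as aorta was measured on one-colour Affymetrix arrays, with biotinylated cRNA made from 6 ug of total RNA per the labels' protocols. The deposited table holds log2 values of the authors for 35399 probe sets on each array. The log base was read from the range, 1.55 to 13.96. MAS5 is named, without a role, in the submitters' processing notes. Nothing read here states the background correction, summary or scaling, which could change small differences of dim genes. Values were used as deposited.

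Of 23410 probe sets in the platform annotation, 21789 had 1 gene symbol. The probe set of the highest mean over 6 arrays stood for a gene. Genotypes were compared in limma 3.58.1 (R 4.3.3, intensity trend, Benjamini-Hochberg adjustment) after the lowest 40% by mean signal were left out, which left 14046. The number of arrays limits the precision. The fit was also run on simulated data with normal noise and 200 changed probe sets. It recovered 39% of changes of 1 log2 unit and 74% of those of 2 units, with 3 false calls. No outlying array was simulated, so these shares need not hold for the data here.

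The desmosome genes, the lists and the markers were chosen with earlier results of these data known. All members are named. Of each list up to 5 genes were named by their difference of wild type 1 from the other 5 arrays. Genes named for knockout 2, and Pkp2, Trp63, Ctnnb1, Dsg4, Itga6, Dst, Cd151, Myl2 and Acta2, were picked after their values were seen. The alternatives were quantile normalization, median centring, a pseudocount of 64, gene means, no filter, a 60% filter, other moderation, array weights, a replicate block and leaving out arrays.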

Additional observations from a re-analysis of the deposited data

How the results depend on the processing

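No desmosome gene and no probe set passed at a limma adjusted p under 0.05 under any of the 17 and 16 alternatives run, where the lowest adjusted p of a desmosome gene was 0.767. The unadjusted count of probe sets in limma was 89 on 6 arrays and 184 in an unmoderated model. The 9 differences between the genotypes kept their sign in 145 of 153 runs, and all 8 changes of sign came without wild type 1. The 6 genes that changed sign had it from wild type 1 wherever that array was kept, so the count is no measure of robustness, while Dsg2, Dsc2 and Jup kept theirs without it at 1.01, 0.05 and 0.00. On leaving out 1 array, the difference ran from -0.25 to 3.08 for Dsc3, -0.17 to 2.72 for Dsg3, -0.13 to 0.99 for Pkp3, -0.071 to 2.19 for Pkp1, -0.036 to 2.18 for Perp, -0.022 to 1.94 for Dsp, 0.00 to 1.12 for Jup, 0.05 to 2.72 for Dsc2 and 0.18 to 1.66 for Dsg2, whose lowest value came without knockout 2. Without wild type 1 and knockout 2 together, an alternative chosen after seeing the data, Dsc3 was at -0.039 and Pkp3 at -0.042. With array weights the 9 differences were smaller, such as 0.12 for Dsp and 0.03 for Dsc3. The count of 8 desmosome genes over 2-fold below every other array on wild type 1 did not differ under 9 alternatives. Most of these could not have lowered it. Leaving out 1 of the other 5 arrays can only keep or raise their lowest value. Gene means repeat the main values, since each gene had 1 probe set. Their median difference from the other 5 arrays was -4.31 to -4.24 on leaving out 1 of those arrays and -3.46 with a pseudocount of 64. By construction a pseudocount raises low signals and so narrows such gaps. With the replicate block 0 desmosome genes and 0 probe sets passed, and the differences had the same values with other errors, such as 1.25 (SE 0.93) for Dsp. Deviations of same-numbered samples correlated at 0.09, -0.23 and 0.20, so the numbers were not taken to pair the samples. Dim signals on wild type 1 limit what can be said of the size of its gaps.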
